A study of Coturnix japonica with 42 samples.

Results

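Eight-week-old male Japanese quail (Coturnix japonica) that had lived on a short day of 6 h light and 18 h dark gave the samples compared here, before their move to a long day. The comparison sets 4 arrays from the light hours of the short day (times 2 and 6 h, 2 arrays each) against 4 arrays from its mid-night (times 14 and 18 h, 2 arrays each). These 8 arrays are part of 12 from the short day and of 42 in the whole series, and they were chosen by their time label alone. All birds of both sides shared the same sex, age and 4 weeks of short days, and no strain, genotype or drug is named in the labels. The tissue was the mediobasal hypothalamus, the part of the brain in which quail turn day length into a reproductive signal. Each array held RNA pooled from 3 birds, with 6 birds taken per time point, so n counts pools and not birds. The arrays carry chicken probes, so a dim or flat probe set in quail cannot be told apart from a transcript whose sequence differs from chicken. The same hours of the following days, when the lit span was 20 h and the night 4 h, served for comparison, with 8 arrays on the first and 8 on the second long day.

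The labels give time but not the moment the light came on. Time was counted here from lights-on of the short day. Time 6 h then falls at the very end of the light, and times 10 to 22 h fall in the dark.

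Many transcripts follow the day through 2 routes. The circadian clock is a feedback loop in which CLOCK and ARNTL switch on the PER and CRY repressors, which then switch off their own synthesis, while the NR1D and ROR receptors set the level of ARNTL. Other transcripts follow activity, feeding, body temperature or light itself. Chaperones such as HSPA5 in the endoplasmic reticulum and the HSP90 and HSP70 families in the cytosol fold proteins, and their genes respond to the load of unfolded protein and to heat. CRY1 and HSPA5 were the markers fixed for the comparison.

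Signal below means the deposited intensity of a probe set, which is the array's measure of 1 transcript, after each array was scaled to a common trimmed mean. A difference is light hours minus mid-night on the log2 scale, from a limma model fitted to all 42 arrays, and a probe set is called when its p, adjusted by Benjamini-Hochberg over all 32057 tested probe sets, is under 0.05. Intervals are 95% intervals from that model. Where several probe sets carry 1 gene symbol, the brightest stands for the gene, which gave 12311 genes.

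Few transcripts were called, and most of those were higher in the light. Limma called 14 probe sets higher in the light hours (0.0437% of those tested) and 1 lower (0.00312%). At an unadjusted p under 0.05 the counts were 666 higher and 753 lower. The 15 called probe sets stood for 11 genes and 2 probe sets without a symbol. On the brightest probe set 10 of the 12311 genes were called, 9 higher and 1 lower. Of those 9 genes 6 encode chaperones or their partners (HSPA5, HSP90B1, HSPA2, DNAJA1, DNAJA4 and BAG3), and the others were CGA, CRY1 and HOMER1. The gene called lower was NR1D2. The calls lean on the spread shared by all 42 arrays: in the 8 compared arrays alone limma called 0 probe sets either with 1 mean per time point (866 higher and 892 lower at an unadjusted p under 0.05) or with 1 mean per side (816 and 892). Using the 12 short-day arrays alone it called 7 higher and 0 lower (796 and 816 unadjusted).

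**Figure D1:**
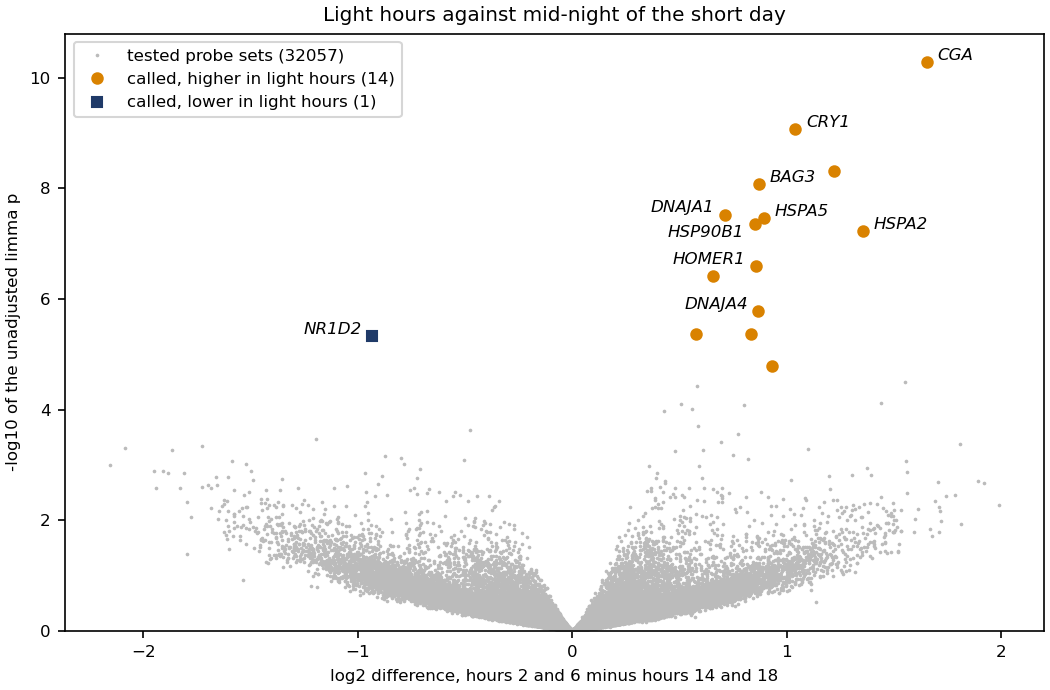
Log2 difference between light hours and mid-night of the short day (x axis) against −log10 of the unadjusted limma p (y axis) for each of 32057 probe sets, with called probe sets in orange (14, higher in light) and blue (1, lower) and the brightest probe set of each called gene named. CGA and CRY1 stand highest, and NR1D2 is the one called point on the left.

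CRY1, the clock repressor, was higher in the light than at mid-night. Its signal was 185 and 150.5 at hour 2, 184 and 190 at hour 6, 122 and 95.8 at hour 14, and 71.0 and 65.7 at hour 18. All 4 light arrays lay above all 4 dark arrays, and hour 18 was the lowest. CRY1 was 2.06-fold higher in the light (177.5 ± 18.2 against 88.6 ± 25.7, mean ± SD, n = 4, interval 1.72 to 2.46, limma adjusted p = 1.36e-05). Of its other probe sets, one gave 0.70 log2 in the same direction with no overlap but was not called (limma adjusted p = 0.945), and the other, at the floor on 7 of 12 short-day arrays, gave -0.35.

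NR1D2, a nuclear receptor of the clock that represses ARNTL, ran the other way. Its signal was 234 and 259 at hour 2, 155 and 181 at hour 6, 304 and 305 at hour 14, and 486 and 505 at hour 18. Every dark array exceeded every light array. NR1D2 was 1.91-fold higher at mid-night (interval 1.5 to 2.44, limma adjusted p = 0.0108, n = 4 a side). The 4 other NR1D2 probe sets were not called, and their differences were 0.29, -0.20, 0.15 and 0.015 log2. The NR1D2 call was also lost in 15 of 27 alternative analyses, among them the values as deposited and the omission of either array of time 14 h or of time 18 h.

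The rest of the clock list showed no call. Of 22 measured core clock genes 13 had a positive difference, CRY1 rose, NR1D2 fell, and the median was 0.12 log2 against -0.014 over all genes. Without overlap 3 of 22 (13.6%) were higher in the light and 1 was lower, against 1.71% each way of all genes. This list was drawn up with earlier results of these data known. NFIL3, a repressor that opposes the D-box activators, had signals of 74.9, 81.9, 101.0 and 75.3 in the light and 66.9, 57.2, 41.3 and 34.5 in the dark. Those groups did not overlap, yet its difference of 0.77 log2 was not called (limma adjusted p = 0.349). RORA, a receptor that activates ARNTL, gave 0.33 log2 without overlap (adjusted p = 1). PER2 gave 0.32, CLOCK 0.15, ARNTL 0.24 and CRY2 0.075 log2, all with overlapping groups and a limma adjusted p of 1. PER3 gave -0.79 log2, from signals of 5.09 to 15.2 in the light and 12 to 19.4 in the dark. PER2 and PER3 were dim throughout, so this array gives them little resolution.

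Among the called genes the largest fold was that of CGA, the alpha subunit shared by thyrotropin and the gonadotropins, which is made in the pituitary and in the pars tuberalis beside the mediobasal hypothalamus. Its signal was 730 and 584 at hour 2, 1176 and 1065 at hour 6, 584 and 380 at hour 14, and 125 and 195 at hour 18. Both sides met at 584, where the lower array of hour 2 and the higher array of hour 14 read alike. CGA was 3.15-fold higher in the light (889 ± 278 against 321 ± 205, mean ± SD, n = 4, interval 2.45 to 4.05, limma adjusted p = 1.67e-06). Within the night it was 1.59 log2 higher at hour 14 than at hour 18, which was also called (limma adjusted p = 0.0064). In bulk tissue, fewer cells of a type and less RNA per cell cannot be told apart. Of the 12 other measured pituitary genes, 4 had positive differences and 0 were called, and their summed signal was 588 to 690 in the light and 664 to 726 in the dark. GH, PRL and POU1F1, which mark the anterior lobe, had mean signals from 6.88 to 14.7 on both sides.

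**Figure D2:**
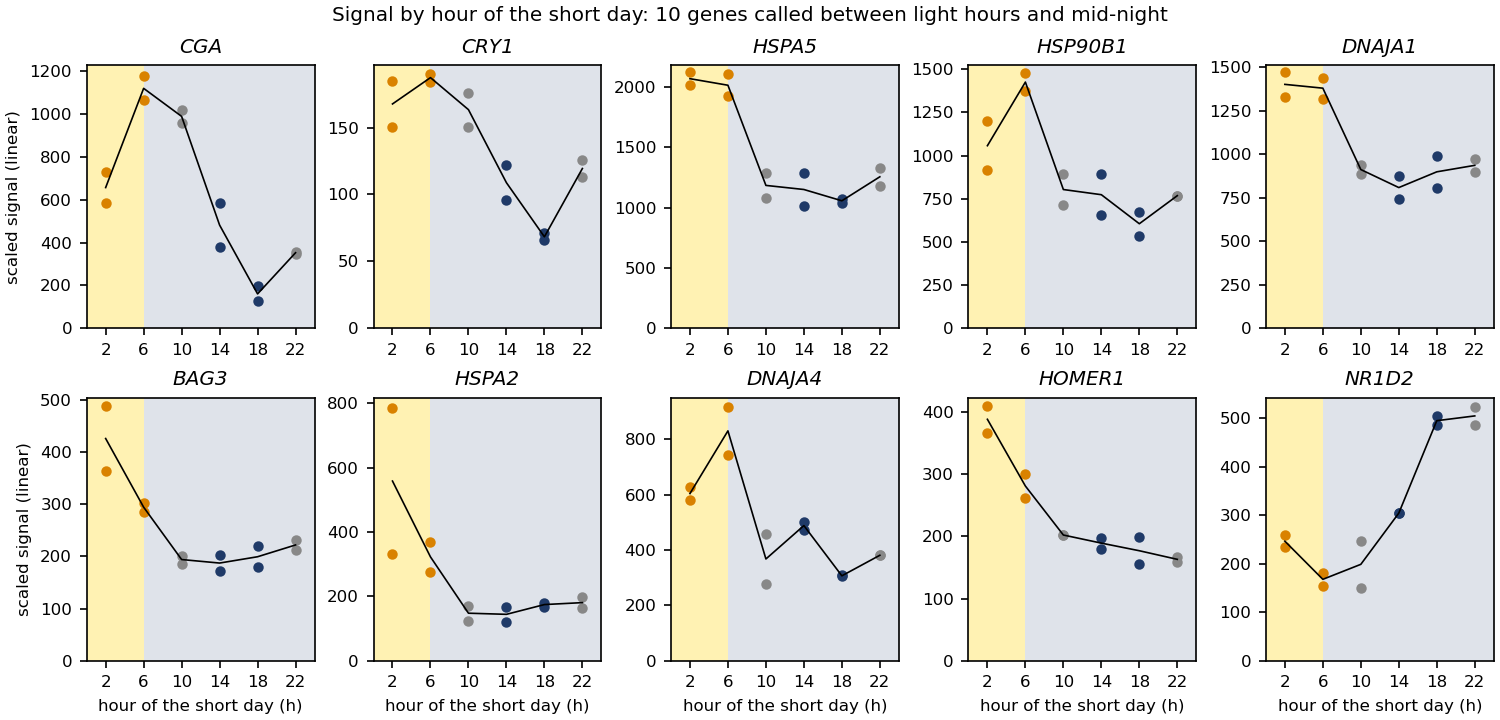
Scaled signal of each of the 10 called genes at 6 hours of the short day, with 1 point per array, 2 arrays per hour, and a line through the means (orange points light hours, dark blue points mid-night, grey points hours outside the comparison; yellow background light, grey background dark as the labels are read). At hour 10 the chaperone genes and HOMER1 lie below their light arrays, HOMER1 still just above mid-night, while CRY1 and CGA have lower means at hour 18 than at hour 10 and NR1D2 a higher one.

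Among chaperones of the endoplasmic reticulum, HSPA5 and HSP90B1 rose in the light. HSPA5, also called BiP or GRP78, gave 2011 and 2123 at hour 2, 2106 and 1920 at hour 6, 1287 and 1011 at hour 14, and 1073 and 1038 at hour 18. The sides were far apart, with the lowest light array well above the highest dark one. HSPA5 was 1.86-fold higher (2040 ± 93.9 against 1102 ± 126, mean ± SD, n = 4, interval 1.55 to 2.22, limma adjusted p = 1.80e-04).

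HSP90B1, the HSP90 of the same compartment, gave 917 and 1198 at hour 2, 1476 and 1376 at hour 6, 893 and 654 at hour 14, and 676 and 535 at hour 18. Its groups did not overlap, though the lowest light array and the highest dark array were close. HSP90B1 was 1.80-fold higher (interval 1.52 to 2.14, limma adjusted p = 2.03e-04, n = 4 a side), and its other, dim probe set gave 0.45 log2 without a call.

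Positive differences were found for 22 of the 31 endoplasmic reticulum chaperones on the array, with a median of 0.14 log2, and HSPA5 and HSP90B1 were the only ones called. Over all 12311 genes 47.6% had positive differences, 9 were called higher and 1 was called lower. In 6 of 31 (19.4%) all light arrays exceeded all dark arrays and in 0 the reverse held. Among all genes tested 211 of 12311 (1.71%) were higher and 210 (1.71%) lower without overlap. The lists were drawn up with earlier results of these data known, so such shares are a description and not independent support. Their summed signal was 7443 to 8482 in the light and 5572 to 6274 in the dark. This linear sum gives most weight to bright genes such as HSPA5, which alone averaged 2040 in the light and 1102 in the dark. CRELD2, a secreted protein that assists folding, gave 136, 165, 145 and 112 in the light and 71.1, 90.8, 103 and 79.7 in the dark, a difference of 0.70 log2 that was not called (limma adjusted p = 0.463). PDIA6, a disulfide isomerase, gave 0.48 log2 without overlap (adjusted p = 0.537), and CALR, the calcium-binding chaperone calreticulin, gave 0.52 log2 with overlap (adjusted p = 0.947).

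Regulators of the unfolded protein response and the secretory entry machinery lay near the level of all genes. Of 19 measured regulators and disposal genes 10 were positive, with a median of 0.011 log2, 0 called by limma and 0 without overlap. XBP1, a transcription factor of that response, gave 0.51 log2 and ATF4, another, 0.26, neither called (limma adjusted p = 1 for both). A different ATF4 probe set ran the other way at -0.92 log2, also without a call (limma adjusted p = 0.947). Of 36 translocon and secretory entry genes 20 were positive, with a median of 0.014 log2. Without overlap 1 (2.78%) was higher in the light, against 1.71% of all genes. These are the genes that carry new proteins into the compartment where HSPA5 works.

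Among cytosolic chaperones 4 genes rose in the light. DNAJA1, an HSP40 partner of HSP70, gave 1329 and 1476 at hour 2, 1442 and 1320 at hour 6, 875 and 743 at hour 14, and 809 and 991 at hour 18. No dark array reached the light range. DNAJA1 was 1.64-fold higher (1392 ± 78.9 against 854 ± 106, mean ± SD, n = 4, interval 1.42 to 1.89, limma adjusted p = 1.80e-04). Its other, much dimmer probe set gave -0.13 log2 without a call (adjusted p = 1), and with the mean over both the call was lost (0.29 log2, adjusted p = 0.983).

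BAG3, a co-chaperone that directs HSP70 clients to autophagy, gave 364 and 488 at hour 2, 286 and 303 at hour 6, 203 and 172 at hour 14, and 180 and 219 at hour 18. Both arrays of hour 2 were the highest. BAG3 was 1.83-fold higher (interval 1.55 to 2.16, limma adjusted p = 6.65e-05), and its other probe set was called as well, at 1.78-fold (adjusted p = 0.0105), a call lost in 13 of 27 alternatives.

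HSPA2, an HSP70, gave 333 and 783 at hour 2, 369 and 276 at hour 6, 167 and 122 at hour 14, and 168 and 181 at hour 18. A single array of hour 2 read far above the other light arrays, yet each of the others also exceeded the dark range. HSPA2 was 2.56-fold higher (interval 1.93 to 3.39, limma adjusted p = 2.37e-04), and without that array its difference fell from 1.36 to 1.05 log2 and was still called (adjusted p = 0.0124).

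DNAJA4, another HSP40, gave 581 and 627 at hour 2, 743 and 918 at hour 6, 503 and 474 at hour 14, and 305 and 309 at hour 18. The sides did not overlap, and within each side the arrays of both hours did not overlap either. DNAJA4 was 1.82-fold higher (interval 1.47 to 2.26, limma adjusted p = 0.00488). Another of its probe sets was called too (1.91-fold, adjusted p = 0.0349), though that call was lost in 17 of 27 alternatives, and the remaining 2, with mean signals from 6.37 to 11.1, were not. The call on its brightest probe set was lost in 9 of 27 alternatives. Among them were the values as deposited, and the omission of replicate 2 of time 6 h or of replicate 2 of time 14 h.

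Of 31 measured cytosolic and mitochondrial heat shock genes 21 had positive differences, and the median was 0.11 log2. Limma called 4 higher (BAG3, DNAJA1, HSPA2 and DNAJA4) and 0 lower. Over all 12311 genes 47.6% had positive differences, 9 were called higher and 1 was called lower. In 8 of 31 (25.8%) the light arrays lay above all dark arrays, and in 0 below, against 1.71% each way among all genes. This list too was drawn up with earlier results of these data known. The summed signal was 17866 to 19957 in the light and 14391 to 15742 in the dark, a linear sum that gives most weight to bright genes such as HSP90AA1. HSP90AA1, the inducible cytosolic HSP90, gave 3648, 4125, 4137 and 3951 in the light and 3063, 2936, 2889 and 2892 in the dark on its brightest probe set. That difference of 0.43 log2 was not called (limma adjusted p = 0.154), while its other probe set was called at 1.49-fold (interval 1.28 to 1.73, adjusted p = 0.0105), a call lost in 13 of 27 alternatives. HSPA4L (0.59 log2), HSPA8 (0.37) and AHSA1 (0.35), the last an activator of HSP90, had no overlap and were not called (limma adjusted p from 0.273 to 0.946). The rise was not uniform: probe sets of the heat shock genes HSF2 (-0.67 log2), HSPA12A (-0.85), HSF4 (-1.10) and DNAJB4 (-1.38) were lower in the light, also without a call.

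The heat shock list, whose genes respond to heat, held 4 called genes. A list of temperature-sensitive splicing genes and a list of glucocorticoid targets gave no call. Of 14 RNA binding and splicing genes that respond to temperature 5 were positive, 0 were called by limma and 1 (7.14%) had no overlap, HNRNPH3, higher in the light. Over all genes 1.71% were higher and 1.71% lower without overlap. Of 13 glucocorticoid targets 4 were positive, 0 were called and 2 were lower in the light without overlap. These were MT4, a metallothionein (-0.44 log2, limma adjusted p = 0.947), and GLUL, the glutamine synthetase of astrocytes (-0.38, adjusted p = 1). The summed signal of the list was 2969 to 3340 in the light and 3609 to 4372 in the dark, a linear sum that gives most weight to bright genes. On the log2 scale the list did not separate, with averages of 5.55 and 5.58 at hours 2 and 6 and 5.61 and 5.51 at hours 14 and 18. Whether body temperature or corticosterone had a part in the chaperone differences was not tested.

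**Figure D3:**
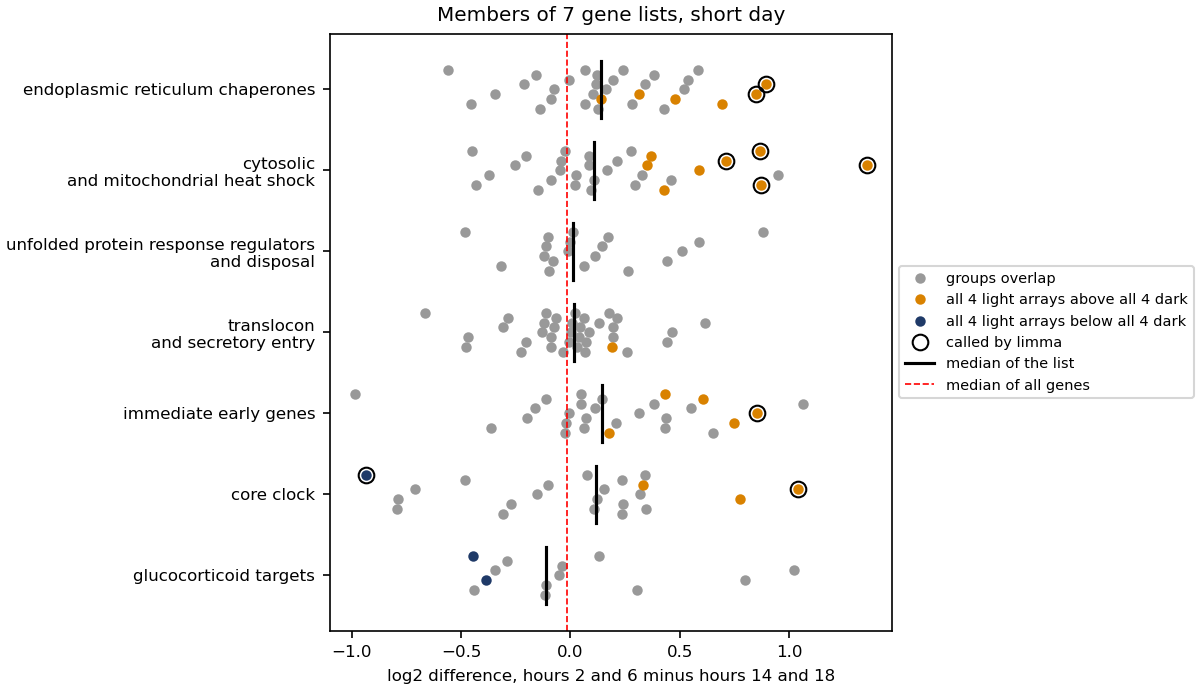
Log2 difference between light hours and mid-night for each measured member of 7 gene lists, with the median of each list as a black bar and the median of all genes as a dashed line (circled points were called by limma; orange and blue points had no overlap between the 4 light and 4 dark arrays). Both chaperone lists carry a tail of separated members to the right that the unfolded protein response and translocon lists lack. The lists were drawn up with earlier results of these data known.

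Among immediate early genes, which neurons switch on within minutes of activity, HOMER1 was the one called. This scaffold of glutamate receptors has a short form induced by activity, which the probe sets were not shown to separate from the long form. Its signal was 366 and 409 at hour 2, 299 and 262 at hour 6, 198 and 180 at hour 14, and 155 and 199 at hour 18. The arrays of hour 2 read highest and no dark array reached the light range. HOMER1 was 1.81-fold higher (interval 1.5 to 2.19, limma adjusted p = 9.13e-04), and its 2 dimmer probe sets gave 0.36 and 0.21 log2 without a call.

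Of 27 measured immediate early genes 19 had positive differences, with a median of 0.15 log2, where 47.6% of all genes were positive. Without overlap 5 (18.5%) were higher in the light, against 1.71% of all genes. This list was also drawn up with earlier results of these data known. EGR1, a zinc finger factor, gave 819, 931, 683 and 802 in the light and 643, 641, 511 and 600 in the dark (0.43 log2, limma adjusted p = 0.937). ARC, which acts at synapses, gave 0.61 log2, and NR4A3, an orphan nuclear receptor, gave 0.75 log2, both without overlap and with an adjusted p of 1. BTG2 ran the other way at -0.98 log2 with overlapping groups (adjusted p = 1).

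Feeding peptides and photoperiod genes gave no call beyond CGA. NPY, the appetite-stimulating peptide of the infundibular nucleus, gave 2082, 2120, 1889 and 2087 in the light and 2741, 2984, 2457 and 3268 in the dark. All dark arrays were higher, but the difference of -0.48 log2 was not called (limma adjusted p = 0.309). Of 28 hypothalamic neuropeptides 16 were positive and 0 were called. DIO2, the enzyme that activates thyroid hormone, read 47.1 ± 18.0 in the light and 47.8 ± 10.0 in the dark, and DIO3, which inactivates it, read 288 ± 58.2 and 343 ± 119 (mean ± SD, n = 4, adjusted p = 1 for both). TSHB, the thyrotropin beta subunit, was near the floor at 5.43 ± 2.32 and 7.73 ± 2.97.

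Summed signals of cell type markers overlapped between the sides. The neuron list, with SNAP25 at 6000 and 6205 on average, summed to 28888 to 29847 in the light and 29335 to 30134 in the dark. Sums also overlapped for oligodendrocytes (13253 to 14034 against 13526 to 14931), astrocytes (7547 to 8022 against 7901 to 8785), erythrocytes (4617 to 6227 against 5310 to 6663), choroid plexus (974.9 to 1376 against 1053 to 1239) and liver genes (8743 to 9928 against 8189 to 10316). The hypothalamic peptides POMC, AGRP, VIP and GAL were present, with means of 156, 43.8, 1185 and 470 in the light, while GNRH1 was at the floor on 7 of 12 short-day arrays. Array brightness, the share of probe sets at the floor and the 3′ to 5′ ratios of GAPDH and actin gave an exact permutation p, two-sided, from 0.20 to 0.714, where 4 arrays against 4 allow 0.0286 at the lowest. Replicate arrays of an hour correlated at 0.901 to 0.904 in the light and 0.891 to 0.901 in the dark. Each hour gives only 1 such value, too few to test between the sides. The part this had in the results was not tested.

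Hours 10 and 22 of the short day lay outside both sides, and the called genes did not all read alike at hour 10. The comparison with these hours was added after the values had been seen by earlier work on these data. At hour 10, in the dark by the reading of the labels, both arrays lay below the lowest light array in 7 of the 9 genes called higher, namely the 6 chaperone genes and HOMER1. HOMER1, at 201 and 202, was also above its highest mid-night array, which none of the 6 chaperone genes was on both arrays. HSPA5 read 1079 and 1287 there, in the range of mid-night. CRY1 instead read 151 and 176, and CGA 957 and 1021, within their light range. Against the light hours, limma called 7 probe sets lower at hour 10 (0.0218%) and 0 higher (0%, with 667 higher at an unadjusted p under 0.05). Among them were BAG3 (-0.86 log2, limma adjusted p = 0.00534), HSPA2 (-1.47, 0.00534) and DNAJA4 (-0.99, 0.0308). The others were PCSK7 (-2.68, 0.00132), KLC2 (-2.27, 0.00752) and probe sets without a symbol (-1.58, 3.96e-05, and -2.49, 0.0375). At hour 10 PCSK7 read 2.18 and 1.41, KLC2 4.38 and 1.33, and the last probe set 1.88 and 7.28, near the floor of 3.509. The PCSK7 and KLC2 probe sets were not the brightest of their genes. The difference for HSPA5 was -0.79 log2 with an adjusted p of 0.0512, and that for DNAJA1 was -0.61 with 0.0625. Against mid-night limma called 2 higher (0.00624%), CGA (1.86 log2, adjusted p = 1.32e-05) and CRY1 (0.92, 0.00646), and 2 lower (0.00624%), KLC2 and FAM219A. At hour 10 FAM219A read 8.58 and 2.30, so that it too had an array under the floor, as KLC2 did. By hour 22 both arrays of all 9 genes lay below the lowest light array. The 9 genes were chosen for higher signal in the light, which by itself favours readings below the light range at other hours. The share over all genes was not counted.

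By list, the endoplasmic reticulum chaperones averaged 6.35 log2 at both hours 2 and 6, then 6.16, 6.19, 6.15 and 6.19 at hours 10, 14, 18 and 22. The heat shock list averaged 7.23 and 7.26 in the light, then 7.03, 6.94, 7.13 and 7.0. Immediate early genes averaged 5.67 and 5.62 in the light, then 5.40, 5.55, 5.34 and 5.52. Within the light, time 2 against time 6 h gave 1 probe set called lower (0.00312%), WDR61. Within the night, time 14 against time 18 h gave 2 higher (0.00624%). These were CGA and 1 of the 2 called probe sets without a symbol, at 0.93 log2 (limma adjusted p = 0.0064).

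The genes with the daily course most like a marker were found from the 6 short-day time means, as a description. For CRY1 the closest were SRCIN1 (Pearson r = 0.995 over 6 means), TTC8, KCTD1, LOC107055364 and RWDD4 (r from 0.975). For HSPA5 they were XPO1 (r = 0.997), KYNU, HSP90AA1, SGMS2 and LOC418543 (r from 0.983). HSP90AA1 belongs to the chaperones fixed as a list, while the others do not. All means come from the same 12 arrays, and with 12311 genes and 6 means high values arise readily.

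The other of the 2 called probe sets without a gene symbol in the annotation used had its lowest mean at hour 14. It read 423 and 506 at hour 2, 280 and 370 at hour 6, 128 and 130 at hour 10, 94.8 and 134 at hour 14, 224 and 265 at hour 18, and 433 and 498 at hour 22. The trough lay at hours 10 and 14, and the level was back at that of hour 2 before the light. It was 2.33-fold higher in the light hours (interval 1.86 to 2.91, limma adjusted p = 5.07e-05).

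The same hours on the following days gave arrays independent of the short day, with all 4 hours lit by the reading of the labels. On the first long day limma called 1 probe set higher at hours 2 and 6 (0.00312%) and 1 lower (0.00312%), and on the second 3 higher (0.00936%) and 2 lower (0.00624%). The probe set without a symbol that was lowest at hours 10 and 14 was called higher on both days, at 1.01 log2 (adjusted p = 0.00414) and 0.84 log2 (adjusted p = 0.0412). TSHB was called lower on both, LRIF1 and RNF151 higher and FAM219A lower on the second. None of the 10 genes called on the short day was called on either long day. Their differences had the short-day sign in 10 of 10 on the first long day and in 5 of 10 on the second, and all 10 were smaller than on the short day. Taken in the short-day direction, the median of the 10 was 0.88 log2 on the short day, 0.34 on the first long day and 0.036 on the second, and a smaller value on new arrays is what choosing by the short-day result alone also gives.

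**Figure D4:**
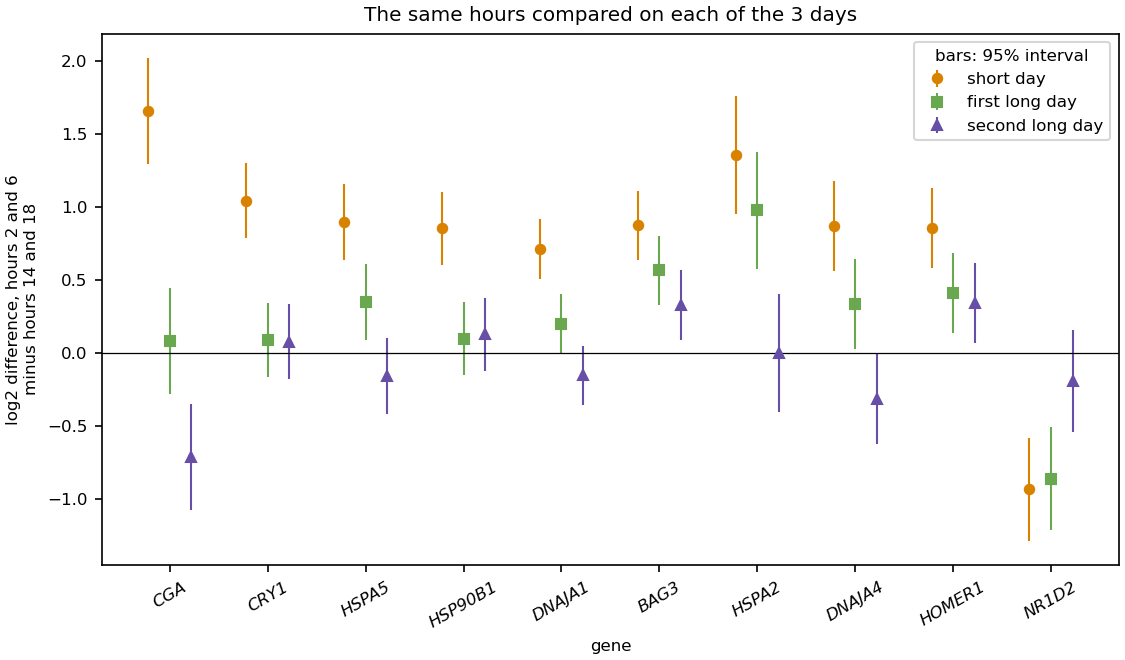
Log2 difference between hours 2 and 6 and hours 14 and 18 for the 10 called genes on the short day, the first long day and the second long day (points are limma estimates from 4 arrays against 4, bars are 95% intervals). On the first long day the intervals of HSPA5, BAG3, HSPA2, DNAJA4, HOMER1 and NR1D2 leave out 0, each on the short-day side, and on the second those of BAG3 and HOMER1 lie above 0 and those of CGA and DNAJA4 below.

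The difference between days was tested as such. Against the second long day limma called the short-day difference higher for 6 probe sets (0.0187%) and lower for 1 (0.00312%), and 5 of the 6 were genes called on the short day. The same short-day arrays enter both tests, which favours such an overlap, so it is not independent support. The difference of differences was 2.37 log2 for CGA (SE 0.253, limma adjusted p = 1.24e-06), 0.97 for CRY1 (SE 0.178, adjusted p = 0.0232), 1.05 for HSPA5 (SE 0.18, adjusted p = 0.0129), 0.87 for DNAJA1 (SE 0.143, adjusted p = 0.00901) and 1.18 for DNAJA4 (SE 0.214, adjusted p = 0.0198). The CGA call held in all 20 alternatives run. The calls for DNAJA1, HSPA5, CRY1 and DNAJA4 were lost in 4, 6, 9 and 11 of the 20, and those for all of these 4 genes went without replicate 2 of time 14 h, replicate 1 of time 18 h, replicate 1 of time 50 h or replicate 2 of time 66 h. The count of 7 ran from 1 to 52 over the omission of single arrays, with 52 without replicate 1 of time 62 h. For HSP90B1, BAG3, HSPA2, HOMER1 and NR1D2 the difference between days was not called (limma adjusted p from 0.0921 to 0.693). Against the first long day CGA was called (1.58 log2, limma adjusted p = 0.0112), and CRY1 was not (0.96, adjusted p = 0.0833). Nor were HSPA5 (0.55 log2), DNAJA1 (0.51) and DNAJA4 (0.53), each with a limma adjusted p of 0.9996, although all 4 hours were lit on that day too.

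The smaller contrasts do not mean a flat day. CRY1 had its highest mean of the first long day at 34 h (203 ± 9.43, SD, n = 2) and its lowest at 44 h (104 ± 4.98), which is an hour of day the short day lacks. NR1D2 read 175 ± 30.9 at 30 h and 494 ± 79.8 at 42 h, close to its short-day range of 168 ± 18.5 at hour 6 and 495 ± 13.1 at hour 18. At 26, 30, 38 and 42 h HSPA5 read 2097 ± 233, 1823 ± 188, 1589 ± 53.3 and 1493 ± 257. At hours 14 and 18 of the short day it had read 1149 ± 195 and 1056 ± 25.2. CGA stayed at 691 ± 12.8 at 42 h against 160 ± 49.4 at hour 18. These pairs of hours were not tested singly here.

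**Figure D5:**
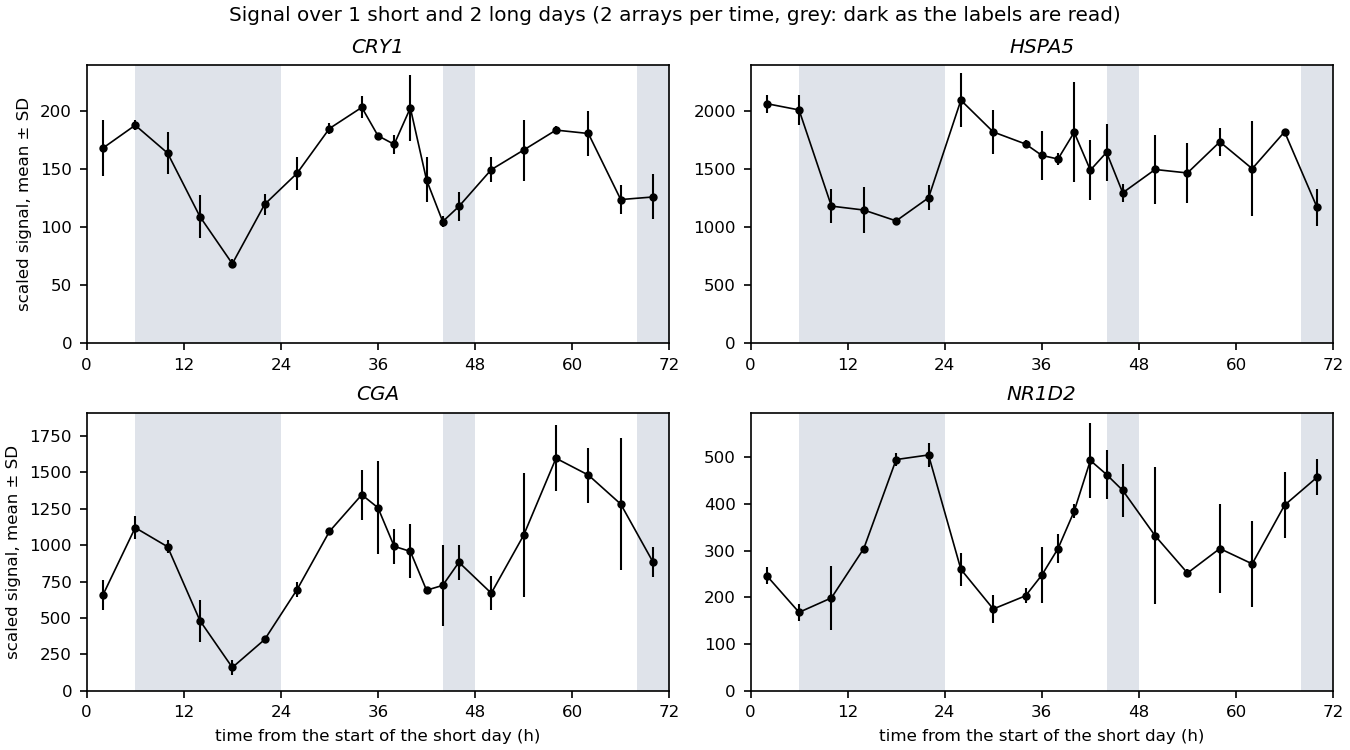
Mean scaled signal ± SD of CRY1, HSPA5, CGA and NR1D2 at 21 time points over the short day and both long days (2 arrays per time, grey spans dark as the labels are read). CRY1 and NR1D2 keep a daily swing on the first long day. CGA also varies there, from 1346 at 34 h to 691 at 42 h, and HSPA5 from 2097 at 26 h to 1298 at 46 h. No long-day mean of HSPA5 or CGA is as low as the short-day lows of 1056 and 160, though HSPA5 reads 1175 at 70 h.

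By list, the same hours of the 3 days gave the following counts. Endoplasmic reticulum chaperones higher at hours 2 and 6 without overlap numbered 6 of 31 on the short day, 2 on the first and 2 on the second long day, and their medians were 0.14, 0.012 and 0.021 log2. For the heat shock list the counts were 8, 5 and 1 of 31 and the medians 0.11, 0.16 and -0.018 log2. For immediate early genes they were 5, 1 and 1 of 27, with medians of 0.15, -0.048 and 0.22 log2. Over all genes the share without overlap was 1.45% higher and 1.58% lower on the first long day and 1.48% higher and 1.43% lower on the second. The lists were drawn up with earlier results of these data known, and the difference between days was not tested for them.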

How the data were processed

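Per array and probe set the authors deposited a linear signal intensity made with GCOS 1.2 per the submitters' processing notes, from 5 µg of total RNA per labelling per the labels. The scaling target is not given in the sources used here. Each array was multiplied by 1 factor (0.796 to 1.29) to a 2% trimmed mean of 32.42, signals under 3.509 were raised to that floor, and log2 was taken. Of 38439 probe sets that were not controls, 32057 read above their array's median on at least 2 arrays and were tested, and 23434 of these carry 1 symbol of the platform annotation, which may be old. Limma 3.58.1 in R 4.3.3 fitted 1 mean per time point to all 42 arrays (21 residual degrees of freedom, variance trend, two-sided tests). The 2 arrays per time limit the precision.

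Genes named were drawn from the core clock list, the markers, called genes whose sides do not overlap (up to 12 each way), and up to 4 members per list of 26 lists by p. Not every measured core clock gene is named. CGA entered through its lists. The probe sets without a symbol, HSP90AA1's and other second probe sets, WDR61, KLC2, PCSK7 and the long-day probe sets were named after their values were seen, as were list members beyond 4. The members and lists were chosen with earlier results of these data known. The model was tested on simulated data. Same-numbered replicates did not deviate together (correlation -0.0083 to 0.023 over 6 pairs of times), so the numbers were not taken as pairs. Alternatives varied scaling, floor, filter, arrays in the model, variance model, covariates, single arrays and single hours.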

Additional observations from a re-analysis of the deposited data

Results flagged for a closer look

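CRY1 at time 2 h, replicate 2, read 150.5, apart from the other 3 light arrays at 184.3 to 190.4. On the less bright called probe set of DNAJA4, time 14 h, replicate 1, read 154.2, apart from the other dark arrays at 82.5 to 90.9. These were 2 of 30 groups of 4 arrays set against Dixon's 95% critical value, which chance passes in about 5%.

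The light-to-night difference of the short day differed from that at the same hours of the second long day (limma, interaction) for CGA by 2.37 log2, LRRC40 by 2.24 on a probe set that was not its brightest, DNAJA4 by 1.18, HSPA5 by 1.05, CRY1 by 0.97 and DNAJA1 by 0.87, and for LRIF1 by -2.26. LRIF1 was not called on the short day (-0.58 log2, adjusted p = 1) and was higher at hours 2 and 6 of the second long day (1.68, adjusted p = 0.00798). Against the first long day CGA differed by 1.58 log2. LRRC40 kept its call in 7 of 20 alternatives and LRIF1 in 13 of 20.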

How the results depend on the processing

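No direction among the called probe sets reversed in any alternative run. Against 14 probe sets higher, limma called 7 with the 12 short-day arrays alone, 7 without a variance trend, 0 in the 8 compared arrays alone with either model, 9 with time 2 h alone as light, 7 with time 6 h alone, and 5 with time 14 h alone as dark. Omitting single arrays gave 11 to 16. Against 1 lower, it called 0 on the values as deposited, with median centring, with the 12 or the 8 arrays alone, without a trend (797 at an unadjusted p under 0.05) and with time 14 h alone, 2 with time 2 h alone, and 0 to 3 over the omission of single arrays. With the mean over a gene's probe sets 5 genes were called higher (against 9) and 0 lower (against 1). CRY1, HSP90B1, DNAJA1, DNAJA4, HOMER1 and NR1D2 then lost their calls. The count of 7 between the short and the second long day ran from 1 to 52 over single arrays. CRY1, HSPA5, DNAJA1, CGA and BAG3 kept their calls in 24 of 27 alternatives, lost in both models of the 8 arrays alone and in 1 other. The calls of HSPA2, HOMER1, HSP90B1 and DNAJA4 were lost in 4, 5, 6 and 9 of the 27. The cause of these changes was not tested. The replicate block gave 14 higher and 1 lower, and 7 between days, so it changed none of these counts. Signals near the floor, such as PER2, PER3 and TSHB, are limited by background.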

Other observations

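Some members of other gene lists also had no overlap between the light hours and mid-night of the short day, without a call. Over all 12311 genes 211 (1.71%) were higher and 210 (1.71%) lower without overlap, so single members of this kind are not unusual. MFSD2A, a lipid transporter of the blood-brain barrier, read 37.0, 29.9, 41.4 and 32.9 in the light and 68.6, 52.6, 82.5 and 56.9 in the dark (-0.87 log2, limma adjusted p = 0.605). SCG3, a protein of secretory granules, read 718, 783, 770 and 750.5 in the light and 548, 481, 610 and 287 in the dark (0.70 log2, adjusted p = 1). DCN, a matrix proteoglycan of the meninges and vessel walls, read 850.0, 806, 756 and 789 in the light and 691, 691, 519 and 693 in the dark (0.31 log2, adjusted p = 1). No member was called by limma among 19 sterol synthesis genes (10 positive), 19 genes that respond to fasting (10 positive), 26 cell cycle genes (12 positive) or 19 microglia and leukocyte genes (12 positive).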
